A study of Mus musculus with 2 samples.

Results

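Toll-like receptors and the proteins that link them to the transcription factor IRF5 were followed across the leukocytes of the mouse aorta. The group was chosen by gene symbol and held 10 of the 32285 genes in the files: the receptors Tlr2, Tlr4, Tlr7, Tlr8, Tlr9 and Tlr13, the adaptor Myd88, the kinase Irak4, the receptor chaperone Unc93b1 and the endolysosomal transporter Slc15a4. UMIs of all 10 were present in both libraries, a UMI being the random tag by which a captured transcript is counted once. The study made 2 droplet single-cell RNA libraries of aortic leukocytes labelled CD45+. One was labelled as coming from the ZnDPA@siIRF5-treated group, an agent whose name gives a small interfering RNA against Irf5, and the other as coming from the control group. The question was what the treatment did to the macrophages of aortic lesions. The labels used here give no number of pooled mice, no genotype, diet or age, and no account of what the control mice received beyond the library name Scr, which they do not explain.

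Toll-like receptors recognise conserved microbial molecules and, in damaged tissue, molecules released by dying cells. TLR2 and TLR4 sit in the plasma membrane and respond to lipoproteins and lipopolysaccharide. TLR7, TLR8, TLR9 and TLR13 sit in endolysosomes, where they read RNA or DNA, and UNC93B1 carries them there. On ligand binding these receptors recruit MYD88, which gathers IRAK kinases including IRAK4. SLC15A4 sits in the endolysosomal membrane and, with its partner TASL, brings IRF5 to receptors of that compartment. In the atherosclerotic aorta these receptors are best known in macrophages.

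After removal of barcodes with under 500 genes or over 15% mitochondrial UMIs and of called doublets, 11805 cells remained in the library labelled treated and 11523 in that labelled control, with medians of 4543 and 4629 UMIs per cell. Among the barcodes of these cells, 37 occurred in both libraries. Cell types were rebuilt from marker genes, with the 10 genes and the wider pathway left out of the clustering, and carry the ending "-like". A level is given as CPM, the UMIs of a gene in parts per 1000000 UMIs of that cell type and library. Where values come in pairs, the library labelled treated is first, and brackets hold 95% intervals that cover counting error only. There was 1 library per group, so no test was possible, and differences between mice, dissections and libraries cannot be told apart from the treatment. Levels are compared between cell types and libraries, not between genes, since capture at the 3′ end can differ between transcripts. Tlr7, Tlr8 and Tlr13 lie on the X chromosome. Both libraries held the Y-linked Ddx3y, at 122 and 110 CPM, and 9 UMIs each of Xist, which silences an X chromosome in females.

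Irf5, the gene named in the treatment, was not lower under the treated label in macrophage-like cells. Macrophage-like cells held 125 and 109.6 CPM, a log2 ratio of 0.18 (0.08 to 0.29) for treated over control. In none of the 12 types compared was the interval of Irf5 wholly below 0. Granulocyte precursor-like cells held 53.1 CPM (45.2 to 62.0) and 26.8 CPM (21.1 to 33.5), and patrolling monocyte-like cells 187 CPM (170 to 206) and 139 CPM (118 to 163). In pDC-like cells, which at 67 and 41 cells were outside the 12, Irf5 was lower with overlap, at 71.3 CPM (49.4 to 99.7) and 109 CPM (76.1 to 152). Directions below are therefore those between the 2 libraries under their labels.

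Tlr2 was a receptor of monocytes, neutrophils and macrophages. In the library labelled treated, classical monocyte-like cells held 399 (382 to 417) CPM, patrolling monocyte-like cells 375 (351 to 401), neutrophil-like cells 329.8 (313 to 347) and macrophage-like cells 268 (259.6 to 276). In that labelled control the same types held 362 (334 to 391), 297 (265 to 331), 278 (258 to 299) and 308 (298 to 319) CPM. Classical monocyte-like cells had the highest value in both, overlapping with patrolling monocyte-like cells under the treated label, and macrophage-like cells were the lowest of the 4 under the treated label but next to the highest under the control label, overlapping patrolling monocyte-like cells. Of the conventional dendritic cells, those of the second kind (cDC2-like) held 77.5 and 97.2 CPM and the cross-presenting kind (cDC1-like) 16.1 and 14.0. A Tlr2 UMI was seen in 60.5% (58.4 to 62.5) and 63.9% (61.5 to 66.3) of macrophage-like cells. The share in T cell-like cells, set beside it for scale, was 1.97% and 1.35%, at median depths of 4242 and 3690.5 UMIs against 5953 and 6019 in macrophage-like cells. The gene lies on the minus strand of chromosome 3, 83836272 to 83841767 in GRCm38 (mm10), the build of all positions given here.

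Tlr4, the lipopolysaccharide receptor, had its highest level in neutrophil-like cells of both libraries, at 106 CPM (96.7 to 116) and 97.4 CPM (85.7 to 110.2). Macrophage-like cells held 44.1 and 38.3 CPM and classical monocyte-like cells 40.4 and 38.6, with overlapping intervals. Patrolling monocyte-like cells, at 8.05 and 18.9 CPM from 19 and 21 UMIs, stood below these, which sets them apart from their high Tlr2. Fibroblast-like cells, which a CD45 gate should remove, held 28.9 CPM (16.9 to 46.3) and 55.5 CPM (40.6 to 74.0). In those cells the neutrophil marker list summed to 6841 and 2521 CPM and the macrophage list to 975.4 and 1313 CPM, with no marker at 0, and the part of such RNA in their Tlr4 was not tested. Tlr4 spans 66827584 to 66930284 on the plus strand of chromosome 4.

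Tlr7, a receptor for single-stranded RNA, was highest in plasmacytoid dendritic (pDC-like) cells, at 81.8 CPM (58.2 to 112) and 90.6 CPM (60.7 to 130.1) from 39 and 29 UMIs. These intervals overlapped those of macrophage-like cells, at 66.0 CPM (61.9 to 70.3) and 72.8 CPM (67.8 to 78.1). Patrolling monocyte-like cells held 59.3 and 70.3 CPM, classical monocyte-like cells 51.1 and 38.0 and B cell-like cells 21.9 and 19.1. B cell-like cells were the only lymphocyte type above 10 CPM in both libraries, and T cell-like cells held 2.33 and 3.36. Neutrophil-like cells, high in Tlr2 and Tlr4, held 6.58 and 5.82 CPM. The gene lies on the minus strand of the X chromosome, 167304929 to 167330558.

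Tlr8, its neighbour (167242696 to 167264329, minus strand), was low in every type. Its highest level was in patrolling monocyte-like cells, 11.4 and 14.4 CPM from 27 and 16 UMIs. Classical monocyte-like cells held 9.67 and 6.43 CPM and macrophage-like cells 7.22 and 6.41, with overlapping intervals between neighbours in this order. No Tlr8 UMI was seen in pDC-like cells, which allows up to 6.29 and 9.37 CPM by a limit of 3 counts.

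Tlr9, the receptor for unmethylated CpG DNA, was close to undetected. Over all kept cells there were 23 and 17 UMIs. In pDC-like cells, which are known for TLR9, there was none in 67 and 41 cells, which allows up to 6.29 and 9.37 CPM by the same limit. Those cells held all 8 listed pDC markers, which summed to 13628 and 12790.2 CPM. B cell-like cells held 4 and 2 Tlr9 UMIs and macrophage-like cells 8 and 6. At this depth Tlr9 was not detectable in pDC-like cells, and the libraries were not compared for it. The gene lies on the plus strand of chromosome 9, 106222598 to 106226883.

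Tlr13, which recognises bacterial ribosomal RNA, ran from neutrophil-like cells down through the monocytes. Neutrophil-like cells held 70.9 CPM (63.4 to 79.0) and 73.3 CPM (63.3 to 84.6), patrolling monocyte-like cells 50.8 and 47.8, classical monocyte-like cells 32.7 and 32.1 and macrophage-like cells 22.4 and 24.0. These 4 types came in the same order in both libraries, and neighbours in it did not overlap under the treated label, while the last 3 overlapped in turn under the control label. Among neutrophil-like cells 14.1% and 14.2% held a Tlr13 UMI at median depths of 2060 and 2197.5 UMIs, against 0.337% and 0.122% of T cell-like cells. The endosomal receptor Tlr13 was highest where the surface receptor Tlr4 was, and Tlr7 was not. The gene lies on the plus strand of the X chromosome, 106143204 to 106160493.

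**Figure D1:**
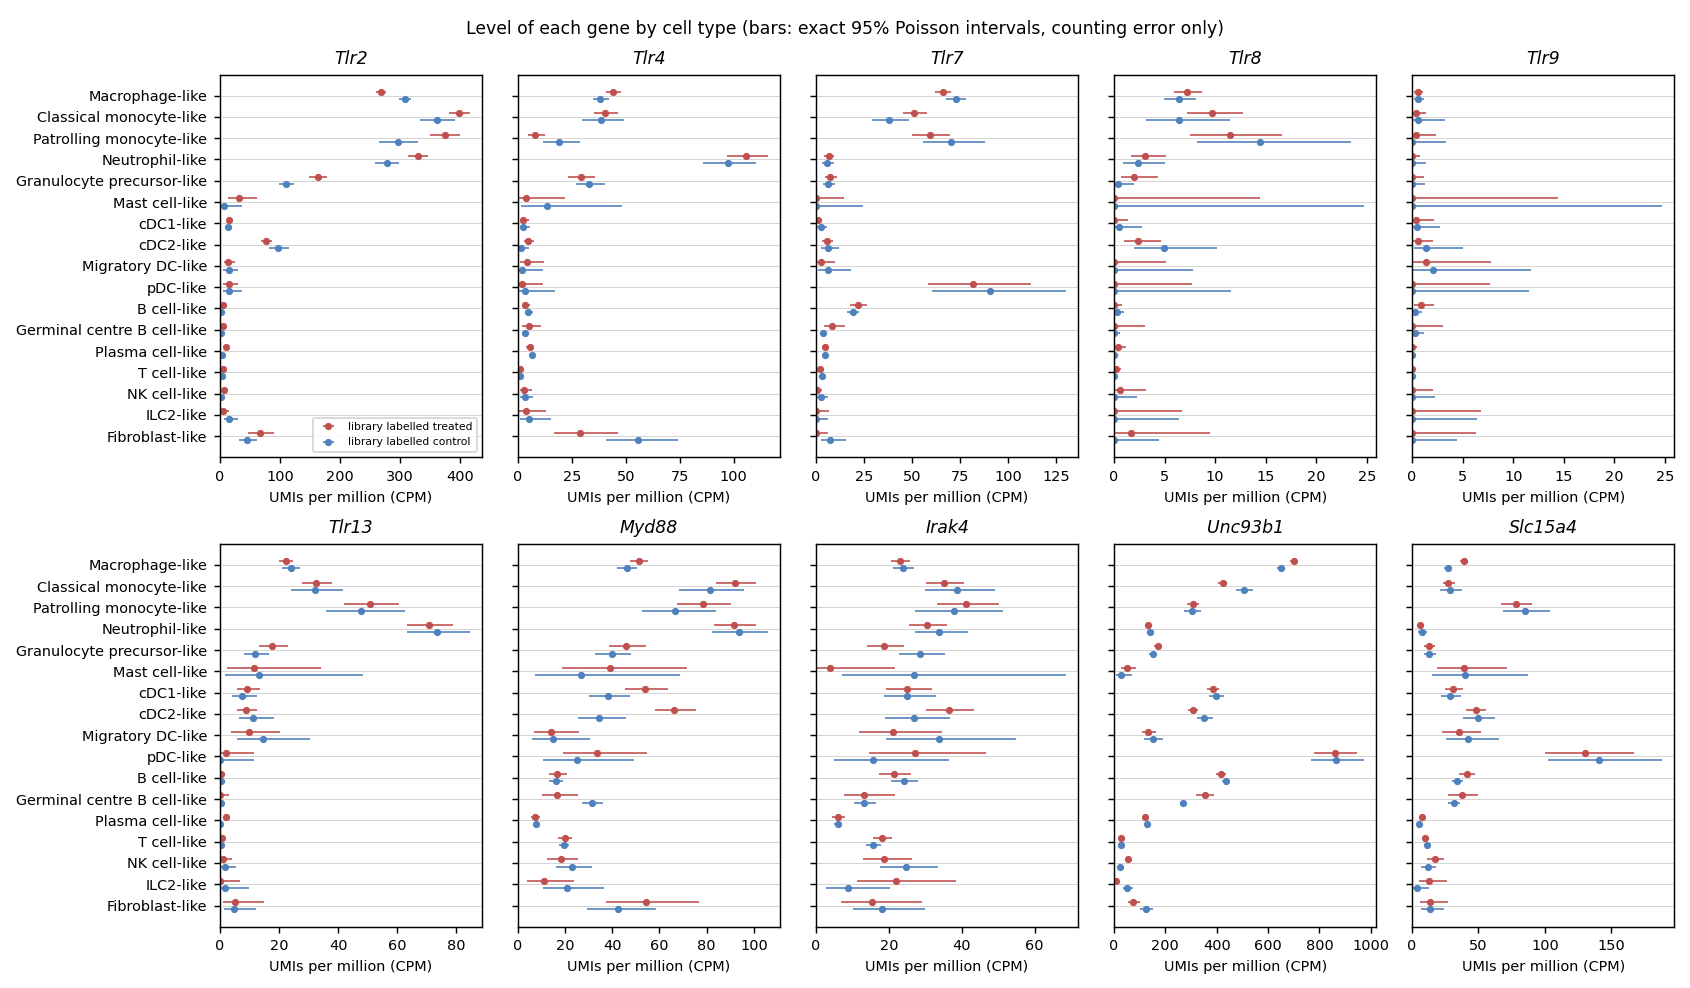
Level of each of the 10 genes (CPM, horizontal axis, scaled per panel) in 17 cell types (rows), with red points for the library labelled treated, blue points for the library labelled control and bars for exact 95% Poisson intervals of counting error. Tlr2, Tlr4 and Tlr13 peak in the monocyte-like or neutrophil-like rows, Tlr7, Unc93b1 and Slc15a4 in the pDC-like row, and the Tlr9 points lie near 0 in each row.

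The mix of receptors within a type also told the cells apart. Of the UMIs of the 6 receptors, Tlr7 took 81.2% (67.4 to 91.1) and 82.9% (66.4 to 93.4) in pDC-like cells and 69.4% (61.3 to 76.7) and 69.4% (62.4 to 75.8) in B cell-like cells. In neutrophil-like cells Tlr7 took 1.27% and 1.27%, while Tlr4 took 20.5% and 21.3% and Tlr13 13.7% and 16.0%. Macrophage states differed among themselves. Resident macrophage-like cells, marked by Lyve1 and Folr2, had 19.5% (17.9 to 21.2) and 20.8% (19.2 to 22.6) of receptor UMIs from Tlr7, and foamy macrophage-like cells, marked by Spp1, Gpnmb and Trem2, 7.11% (5.63 to 8.83) and 7.81% (5.94 to 10.0). Foamy cells took 7.204% and 9.66% from Tlr13, against 4.98% and 4.11% in resident cells. Such shares describe each type and do not rank the receptors. The pDC-like shares rest on 48 and 35 receptor UMIs and the B cell-like ones on 147 and 196.

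**Figure D2:**
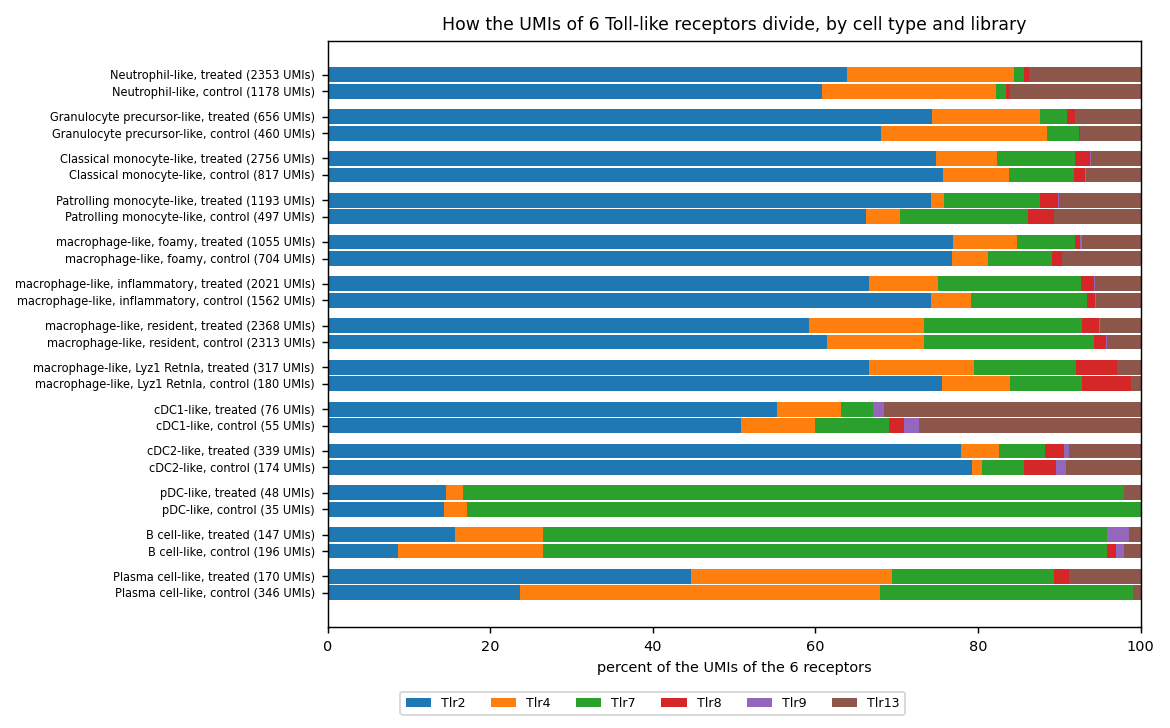
Share of each receptor (percent, horizontal axis) among the UMIs of 6 Toll-like receptors in 13 cell types or macrophage states and both libraries (rows, with the number of receptor UMIs). Green Tlr7 fills most of the pDC-like and B cell-like bars, blue Tlr2 most of the monocyte-like and macrophage-like bars, and the neutrophil-like bars add orange Tlr4 and brown Tlr13.

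Unc93b1, the chaperone, was found in nearly all macrophage-like cells, with a UMI in 90.0% (88.7 to 91.3) and 91.0% (89.5 to 92.4). Its level was highest in pDC-like cells, at 860.2 CPM (779 to 948) and 865 CPM (766 to 973), and next in macrophage-like cells, at 701 CPM (687 to 714) and 651 CPM (636 to 666). Classical monocyte-like cells held 424 and 507 CPM, B cell-like cells 416 and 435 and cDC1-like cells 386 and 398. Neutrophil-like cells, the highest in Tlr13, held 131 and 142 CPM. T cell-like cells were among the lowest, at 27.4 and 26.5 CPM. The gene lies on the plus strand of chromosome 19, 3935186 to 3949340.

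Slc15a4 had its highest level in pDC-like cells, 130.1 CPM (99.7 to 167) and 141 CPM (103 to 188), followed by patrolling monocyte-like cells at 77.96 CPM (67.1 to 90.1) and 84.8 CPM (68.5 to 104). Those intervals overlapped under the control label only. cDC2-like cells held 47.8 and 49.3 CPM, B cell-like cells 41.1 and 34.0 and macrophage-like cells 39.0 and 26.9. Neutrophil-like cells, at 6.36 and 7.37 CPM, were the lowest of the myeloid types, overlapping granulocyte precursor-like cells at 12.7 and 13.03. 5430427O19Rik, the symbol under which the files list the mouse gene of TASL, was also highest in pDC-like cells (109 and 90.6 CPM), but held 49.4 and 55.1 CPM in the neutrophil-like cells that had little Slc15a4. Slc15a4 lies on the minus strand of chromosome 5, 127595664 to 127632897.

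Myd88 and Irak4, which serve nearly every receptor of the family, had UMIs in all 17 types. Myd88 was highest in classical monocyte-like cells (92.1 and 81.3 CPM), neutrophil-like cells (91.7 and 93.5) and patrolling monocyte-like cells (78.4 and 66.7), whose neighbours in the order of each library overlapped. T cell-like cells held 19.8 and 19.4 CPM and plasma cell-like cells, the antibody secretors, 7.26 and 7.49. Irak4 held 41.1 and 37.9 CPM in patrolling monocyte-like cells and 35.02 and 38.6 in classical monocyte-like cells, 36.4 and 26.8 in cDC2-like cells, 18.1 and 15.6 in T cell-like cells and 5.94 and 6.06 in plasma cell-like cells. Myd88 lies on chromosome 9, 119335934 to 119341411, minus strand, and Irak4 on chromosome 15, 94543643 to 94581815, plus strand. Myd88 shares 290 exonic bases with Acaa1a on the other strand, and Irak4 shares 395 with Twf1. No source used here states whether counting used strand, and whether reads of the overlapping genes entered these counts was not tested.

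A stretch before a transcript start of Myd88 is printed because, of 7 promoters searched, it alone held a match to 1 of 4 motifs. The RefSeq promoter table (GRCm38.p6) held Tlr2, Tlr8, Tlr9, Tlr13, Myd88, Irak4 and Slc15a4. The 250 bases upstream of each start were searched on both strands for the repeat bound by interferon regulatory factors, the NF-kB motif, AGGAAGT (ETS factors) and CACGTG (the E-box). They occur in 2.98%, 0.356%, 7.69% and 6.02% of 32851 upstream stretches of that length. The stretch is 227 bases of the minus strand at chr9:119340042-119340268 and ends just before a GENCODE transcript start. It lies within Acaa1a on the other strand and also within the annotated Myd88 gene, which runs on to 119341411. Capitals mark the match to the interferon regulatory factor repeat, at -17 to -8 from that start.
Myd88: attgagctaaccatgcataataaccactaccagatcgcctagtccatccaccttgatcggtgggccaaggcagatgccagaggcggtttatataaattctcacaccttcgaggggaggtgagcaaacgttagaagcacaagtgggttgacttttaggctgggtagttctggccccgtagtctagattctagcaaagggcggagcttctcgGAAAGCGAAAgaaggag
The match describes letters in this window and is no measure of binding.

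Across the 12 types with at least 100 cells in each library, the patterns of Tlr2 and Tlr13 were alike (Pearson r of 0.95 on log2 of CPM plus 1), as were those of Tlr13 and Myd88 (0.93). Tlr4 and Slc15a4 had the lowest value among the pairs (-0.06). These are descriptions over 12 points that share libraries and depth. Among all genes, the 3 patterns most like Tlr2 were those of Arhgap23, Cd14 and Cdc42ep4 (0.99, 0.98 and 0.98). Those most like Tlr4 were Mindy1, Lrg1 and C5ar2, and those most like Tlr13 were Tnfaip2, C130050O18Rik and Gk. Tlr7 came closest to Apobec1, 1700029H14Rik and Tom1, Tlr8 to Acp2, Cflar and Csf1r, and Tlr9, on few UMIs, to Ciita, H2-Aa and Usp35. Unc93b1 came closest to Trim25, Fcgr2b and Ctsh, Slc15a4 to Tmem51, Tmem168 and Rufy3, Myd88 to Riok3, Ist1 and Nfe2l2 and Irak4 to Rhoa, Hcls1 and Mob1a. With log2 of CPM plus 10 in place of 1, only 1 of the 3 was named again for Tlr4, Tlr9 and Myd88.

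Levels differed between the granulocyte clusters, though not in even steps. Cluster 35 carried the primary granule genes Elane and Mpo, cluster 26 the secondary granule genes Camp and Ngp, cluster 19 Retnlg and Ly6g, and cluster 18 Stfa2l1 and Cxcr2. Cluster 11 carried Hcar2 and Il1f9, and cluster 12 the interferon-induced Ifit1 and Ifit3. In that order Tlr4 held 30.3, 28.0, 46.3, 86.5, 155 and 184 CPM under the treated label and 34.7, 32.2, 39.7, 96.8, 138 and 108 under the control label. Tlr13 held 15.5, 19.5, 38.1, 68.1, 93.2 and 87.0 CPM and, under the control label, 6.74, 14.99, 49.6, 62.4, 93.4 and 108. Both receptors were higher in clusters 18, 11 and 12 than in clusters 35 and 26 of either library. Myd88 followed them, with 46.6, 45.1, 50.5, 81.6, 122 and 141 CPM under the treated label and 54.9, 31.1, 48.0, 81.8, 135 and 117 under the control label.

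The chaperone did not follow this pattern. Unc93b1 held 262, 98.7, 94.7, 112, 155 and 251 CPM along the clusters of the library labelled treated and 214, 114, 101, 137, 161 and 204 in that labelled control, so that cluster 35 and cluster 12 were the highest in both. Tlr2 held 193, 138, 233, 302, 411 and 428 CPM and, under the control label, 97.3, 118, 223, 253, 342 and 300.0. The order of the clusters was taken from their leading genes and is not a measured time course. Depth differed along it, with median UMIs per cell of 14104 and 20153.5 in cluster 35 and 1878 and 1898.5 in cluster 11.

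**Figure D3:**
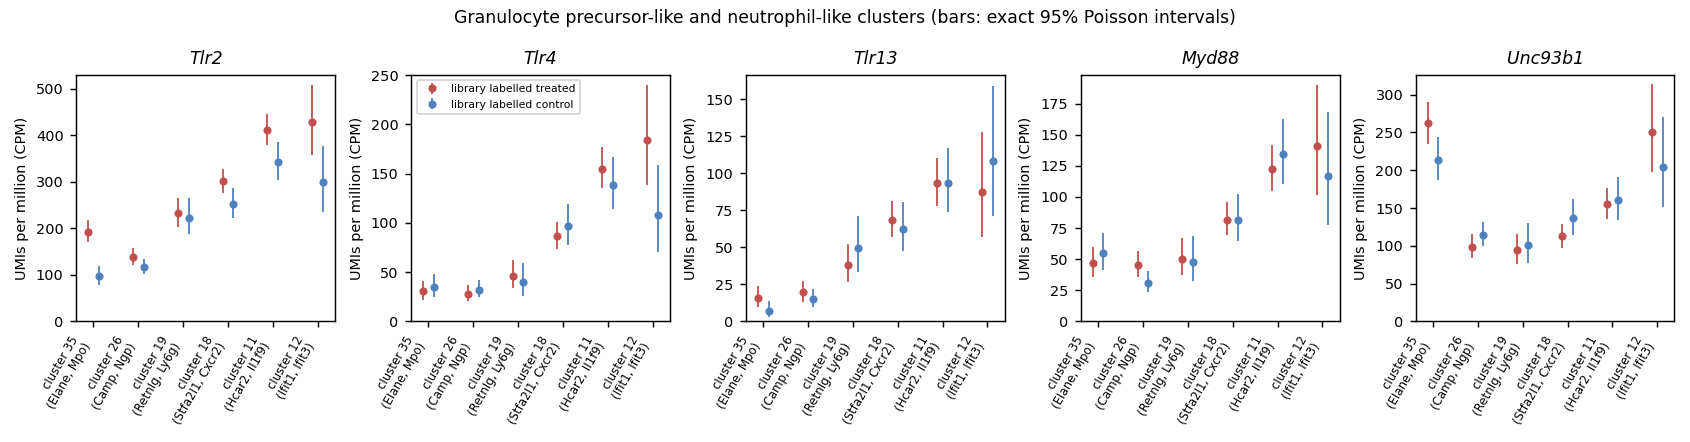
Levels (CPM, vertical axis) of 5 genes in 6 granulocyte precursor-like and neutrophil-like clusters, ordered by leading genes, with red points for the library labelled treated, blue points for the library labelled control and bars for exact 95% Poisson intervals. Tlr4, Tlr13 and Myd88 are higher in clusters 18, 11 and 12 than in clusters 35 and 26 in both libraries, and Unc93b1 is highest in clusters 35 and 12.

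Between the libraries the 10 genes differed little in macrophage-like cells. Genes were compared where they held at least 50 UMIs and 20 CPM in 1 library, in types of at least 100 cells in each. By this rule 8 of the 10 were measured in macrophage-like cells, and Tlr8 and Tlr9 were too low. None of the 8 was 1.5-fold higher or lower, where 3.07% of the 5904 measured genes were (1.36% higher and 1.71% lower). Their median log2 ratio was 0.03, as was that of all measured genes, whose central 95% ran from -0.49 to 0.48. Ratios were above 0 for 4 genes and below 0 for 4. Intervals without 0 were found for 5 of the 8, against 47.3% of all measured genes.

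Slc15a4 stood highest among them. It had 567 and 290 UMIs in macrophage-like cells and a log2 ratio of 0.53 (0.33 to 0.74), at percentile 98.3 of measured genes. A Slc15a4 UMI was found in 21.3% (19.6 to 23.1) and 16.2% (14.4 to 18.1) of these cells, against 4.43% and 4.83% of T cell-like cells. With each cell thinned to 2000 UMIs, leaving out 234 and 135 shallower cells, the shares were 6.5% (5.44 to 7.70) and 5.29% (4.20 to 6.57), with overlapping intervals, against 1.69% and 2.38% in T cell-like cells. By state, the ratio was 0.73 (0.40 to 1.06) in resident cells (38.6 and 23.3 CPM), 0.37 (-0.09 to 0.83) in foamy cells and 0.36 (-0.01 to 0.74) in inflammatory cells, marked by Ccl3 and Ccl4. In resident cells Slc15a4 was the only one of 7 measured genes past 1.5-fold, where 2.35% of 5796 genes were at least that much higher.

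Markers of other cells also differed between the macrophage-like cells of the 2 libraries. The neutrophil list summed to 663 and 392 CPM, the B cell list to 61.0 and 197 CPM and the T cell list to 96.4 and 138 CPM, with no marker at 0. In the 420 of 2157 and 269 of 1591 macrophage-like cells with no more than 1 UMI from the T cell, B cell, plasma cell and neutrophil lists, the Slc15a4 ratio was 0.62 (-0.08 to 1.35) from 56 and 26 UMIs. Such a filter cannot tell RNA of other cells from RNA of the listed genes that a cell made itself. Whether it favoured shallow cells was not tested. It was 0.34 with macrophage-like and monocyte-like cells joined.

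The partner gene differed the other way. 5430427O19Rik held 27.7 and 35.6 CPM in macrophage-like cells, a log2 ratio of -0.36 (-0.56 to -0.15), with -0.48 (-0.78 to -0.18) in inflammatory cells. It was -0.32 (-0.89 to 0.25) in foamy and -0.33 (-0.70 to 0.04) in resident cells, intervals that hold 0. The partner gene was also lower in cDC2-like cells, at -0.61 (-1.16 to -0.03), and in classical monocyte-like cells, at -0.42 (-0.81 to -0.01). Outside macrophage-like cells, the interval of Slc15a4 held 0 in each measured type: classical monocyte-like (-0.06), patrolling monocyte-like (-0.12), cDC1-like (0.12), cDC2-like (-0.04) and B cell-like cells (0.27, interval -0.01 to 0.55). In the 137 and 33 patrolling monocyte-like cells with no more than 1 foreign marker UMI, however, Slc15a4 was at -1.34 (-2.18 to -0.47), from 34 and 20 UMIs. Over all patrolling monocyte-like cells the neutrophil list summed to 1288 and 7967 CPM and the B cell list to 13.1 and 185 CPM, and their part was not tested.

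The surface receptors of macrophage-like cells differed in opposite directions. Tlr2 was lower under the treated label, at a log2 ratio of -0.20 (-0.27 to -0.13) from 3896 and 3320 UMIs, and Tlr4 higher, at 0.20 (0.02 to 0.39) from 641 and 412 UMIs. By state, Tlr2 was at -0.37 (-0.49 to -0.26) in inflammatory cells (313 and 405 CPM) and -0.28 (-0.39 to -0.17) in resident cells (238 and 288 CPM), but at 0.16 (0.00 to 0.32) in foamy cells (315 and 282 CPM). Tlr4 was at 0.99 (0.38 to 1.64) in foamy cells, from 83 and 31 UMIs in 279 and 210 cells (32.2 and 16.2 CPM). It was at 0.59 (0.19 to 0.999) in inflammatory cells (39.9 and 26.5 CPM) and at 0.02 in resident cells (56.6 and 55.9 CPM). Tlr4 was the only one of 8 measured genes past 1.5-fold in foamy and in inflammatory cells, where 3.79% of 5882 and 4.59% of 5855 genes were at least that much higher.

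The Tlr4 difference in foamy cells was wide in error. A Tlr4 UMI was found in 19.4% (14.9 to 24.5) and 12.4% (8.25 to 17.6) of foamy cells, against 0.482% and 0.490% of T cell-like cells, and in 5.20% (2.87 to 8.58) and 4.02% (1.75 to 7.77) after thinning to 2000 UMIs, with overlap in both. The state ratios were not tested against each other. Joining macrophage-like and monocyte-like cells, whose mix differed between libraries, gave a Tlr2 ratio of -0.02, which is not a ratio within macrophage-like cells. For Tlr4, macrophage-like cells with no more than 1 foreign marker UMI gave -0.02 (-0.53 to 0.50), and a mean over cells 0.03.

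Among the endosomal receptors, Tlr7 was at -0.14 (-0.28 to -0.003) in macrophage-like cells and at -0.32 (-0.51 to -0.13) in resident cells, where it held 78.3 and 97.7 CPM, while the ratio was 0.08 in inflammatory and 0.02 in foamy cells. Tlr13 was at -0.11 (-0.35 to 0.14). Unc93b1 was at 0.11 (0.06 to 0.15) in macrophage-like cells and 0.15 (0.09 to 0.21) in resident cells. Joining macrophage-like and monocyte-like cells, whose mix differed between libraries, gave -0.03 for Unc93b1. Myd88 was at 0.15 (-0.01 to 0.32) and Irak4 at -0.05 (-0.28 to 0.19).

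Over all 12 types compared, 50 pairs of gene and type were measured. Of these, 2 were at least 1.5-fold higher and 1 at least 1.5-fold lower under the treated label. The higher pairs were Myd88 in cDC2-like cells and Unc93b1 in NK cell-like cells, and the lower pair was Irak4 in granulocyte precursor-like cells. No measured gene passed 1.5-fold in classical monocyte-like (8 measured), patrolling monocyte-like (7), neutrophil-like (6), B cell-like (4) or cDC1-like cells (4), where 5.09%, 8.3%, 7.11%, 2.88% and 7.22% of all measured genes did. Unc93b1, the 1 gene measured in T cell-like and in plasma cell-like cells, did not pass there either, where 1.53% and 8.97% did, and in ILC2-like cells, which resemble innate lymphoid cells, none was measured.

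Myd88 in cDC2-like cells rested on 226 and 49 UMIs in 381 and 169 cells. It held 66.3 CPM (57.9 to 75.5) and 34.5 CPM (25.5 to 45.6), a log2 ratio of 0.94 (0.49 to 1.42), and was the only one of 5 measured genes to pass 1.5-fold, where 6.08% of 5640 genes were at least that much higher. A Myd88 UMI was found in 39.4% (34.4 to 44.5) and 19.5% (13.8 to 26.3) of the cells, which had median depths of 8490 and 7802 UMIs, against 8.77% and 8.05% of T cell-like cells. Thinned to 2000 UMIs, with 21 and 8 cells left out, the shares were 11.9% (8.78 to 15.8) and 7.45% (3.91 to 12.7), which overlap, against 2.88% and 3.62% in T cell-like cells. The largest share of the UMIs from a single cell was 2.65% and 8.16%. Acaa1a, on the other strand, held 102 and 77.5 CPM there, a ratio of 0.39 (0.08 to 0.71). In cDC1-like cells Myd88 was at 0.50 (0.09 to 0.93), with 54.0 and 38.1 CPM.

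Neutrophil markers also differed between the cDC2-like cells of the libraries, and their part in the Myd88 difference was not tested. The 8 neutrophil markers summed to 1141 and 123 CPM in cDC2-like cells, with 1 of them at 0 under the control label. Under the treated label, 24.6% of these marker UMIs came from a single cell. Among the 84 and 64 cells with no such UMI, Myd88 held 52.3 and 29.5 CPM from 34 and 15 UMIs, a ratio of 0.82 (-0.09 to 1.81). In cells with no more than 1 UMI of any foreign list it was 0.57 (-0.83 to 2.19) from 18 and 6 UMIs, and with doublet calls kept 0.63. In cDC1-like cells the neutrophil list summed to 528 and 242 CPM, with 33.5% and 63.1% of its UMIs from a single cell, and cells without its UMIs gave a Myd88 ratio of 1.24 (0.37 to 2.16) from 32 and 18 UMIs.

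Unc93b1 in NK cell-like cells had 99 and 41 UMIs, at 56.2 CPM (45.6 to 68.4) and 25.2 CPM (18.1 to 34.2), a log2 ratio of 1.15 (0.62 to 1.72). It was the 1 gene measured there, and 2.96% of 5264 genes were at least 1.5-fold higher. The share of cells with a UMI was 19.4% (15.6 to 23.8) and 9.58% (6.90 to 12.9), at median depths of 4024 and 3490 UMIs. T cell-like cells, whose Unc93b1 ratio was 0.05, gave 11.4% (10.0 to 12.8) and 10.2% (9.20 to 11.3). The share in NK cell-like cells overlapped that of T cell-like cells under the control label and lay above it under the treated label. Whether either type makes Unc93b1 RNA itself was not tested. Thinned to 2000 UMIs, with 14 and 17 cells left out, the NK cell-like shares were 7.63% (5.13 to 10.8) and 5.13% (3.16 to 7.81), which overlap. In the same cells the macrophage marker list summed to 94.2 and 65.9 CPM, the B cell list to 102 and 39.4 CPM and the NK cell list to 5183 and 3127 CPM. The part of those lists in the difference was not tested. In ILC2-like cells the counts ran the other way, at 4 and 29 UMIs (7.34 and 50.7 CPM), too few for a comparison, beside B cell markers at 9.18 and 189 CPM and macrophage markers at 80.7 and 169.6 CPM.

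Irak4 in granulocyte precursor-like cells had 56 and 81 UMIs, at 18.7 CPM (14.1 to 24.3) and 28.5 CPM (22.7 to 35.5), a log2 ratio of -0.61 (-1.13 to -0.10), where 3.53% of 5665 genes were at least 1.5-fold lower. As a mean over cells it was -0.35, and with doublet calls kept -1.04. The latter is not of the same cells, since a cluster of 272 and 198 cells led by Ltf, Ngp and Camp was then left unnamed. Twf1, on the other strand, was at 0.35 (-0.15 to 0.85).

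Ratios of Tlr2 lay on both sides of 0 by cell type, and types were not tested against each other. The log2 ratio was above 0 in granulocyte precursor-like (0.56, interval 0.36 to 0.77), patrolling monocyte-like (0.34, interval 0.16 to 0.53), neutrophil-like (0.25, interval 0.12 to 0.38) and classical monocyte-like cells (0.14, interval 0.01 to 0.27). It was below 0 in macrophage-like cells and in cDC2-like cells (-0.33, interval -0.63 to -0.02). Among the precursors, cluster 35 held 193 CPM (170.3 to 218) and 97.3 CPM (79.2 to 118) and cluster 26 138 CPM (121 to 157) and 118 CPM (102 to 135), so that the interval of the latter overlapped between libraries and that of the former did not. The precursor value was 0.11 with doublet calls kept, 0.21 as a mean over cells and 0.94 at clustering resolution 3. The first and last of these are not of the same cells. A cluster led by Ltf, Ngp and Camp was left unnamed there, with 272 and 198 cells with doublet calls kept and 264 and 189 at resolution 3. In patrolling monocyte-like cells with no more than 1 foreign marker UMI the value was 0.15 (-0.39 to 0.73). In cDC2-like cells of that kind it was 0.57 (-0.45 to 1.70), from 33 and 11 UMIs.

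Tlr7 and Unc93b1 also had ratios on both sides of 0 by type. Tlr7 was at 0.43 (0.03 to 0.84) in classical monocyte-like cells, from 264 and 65 UMIs. At clustering resolution 1, where this type held 1187 and 385 cells in place of 704 and 231, Tlr7 was at 0.11. Only 48 of 704 and 16 of 231 classical monocyte-like cells had no more than 1 foreign marker UMI. In those, Tlr7 was at -0.38 (-1.79 to 1.17), from 14 and 7 UMIs. In classical monocyte-like cells the neutrophil list summed to 1240.4 and 2895 CPM and the T cell list to 24.0 and 193 CPM, with no marker at 0, and their part in the differences of this type was not tested. Unc93b1 was lower under the treated label in classical monocyte-like (-0.26, interval -0.37 to -0.14) and cDC2-like cells (-0.20, interval -0.35 to -0.04). In classical monocyte-like cells with no more than 1 foreign marker UMI it was at -0.48 (-1.02 to 0.07). In the unnamed cluster 5, led by Ly6i and Ms4a4c, with 670 and 269 cells, Unc93b1 was at -0.29 (-0.39 to -0.18), and none of its 8 measured genes passed 1.5-fold, where 6.99% of 5510 did.

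**Figure D4:**
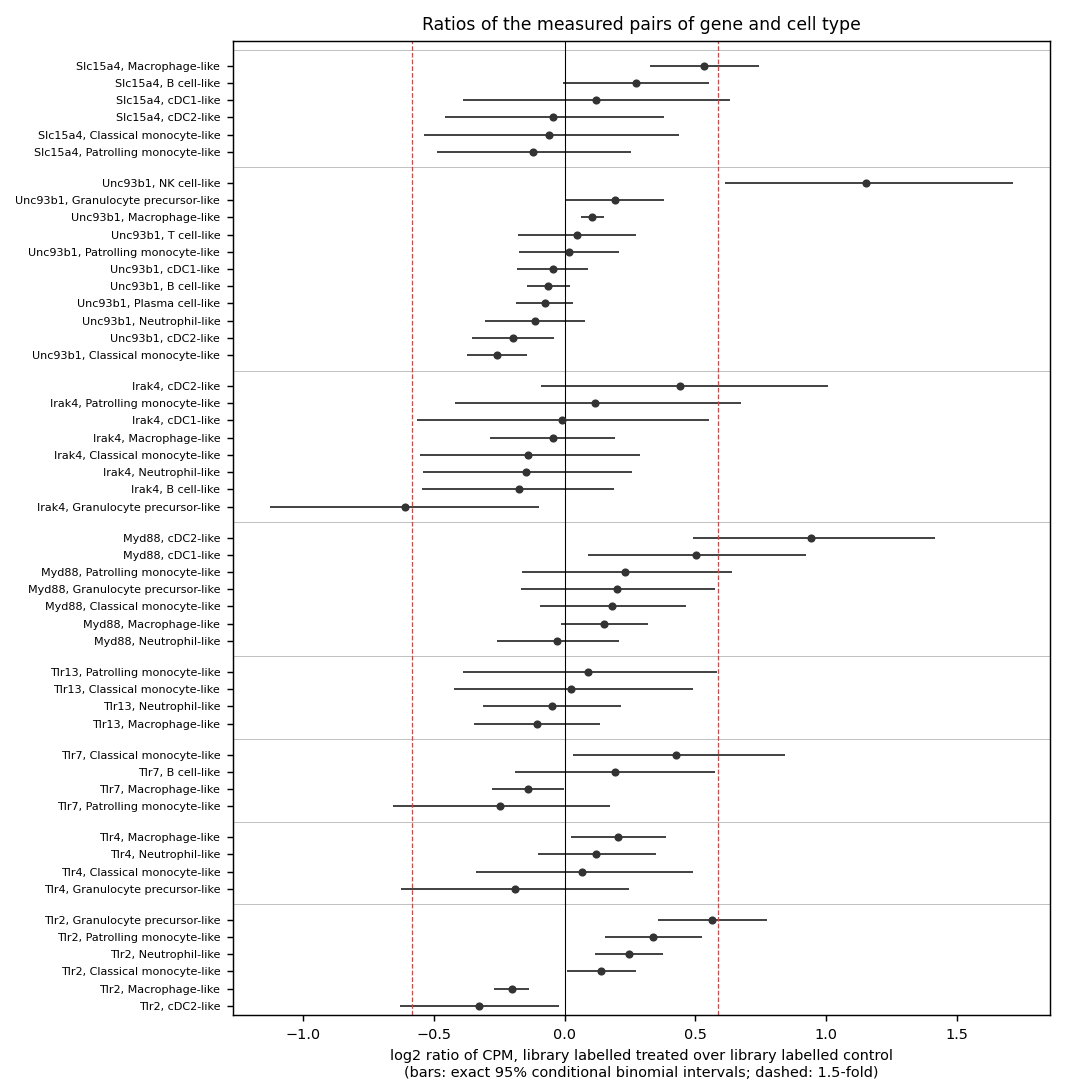
Log2 ratio of CPM, library labelled treated over library labelled control (horizontal axis), for the 50 measured pairs of gene and cell type (rows, grouped by gene), with exact 95% conditional binomial intervals and dashed lines at 1.5-fold. Myd88 in cDC2-like cells (0.94) and Unc93b1 in NK cell-like cells (1.15) lie beyond the right line, Irak4 in granulocyte precursor-like cells (-0.61) beyond the left one, and Tlr2 lies on both sides of 0.

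The wider pathway was likewise near level in macrophage-like cells. Of 77 listed genes, 58 were measured, with a median log2 ratio of 0.02 and 32 above 0. At least 1.5-fold higher was 1 gene and at least 1.5-fold lower 1 gene, beside 1.36% and 1.71% of all measured genes. The higher one was Irf7, which drives type I interferon genes, at 110.1 and 67.5 CPM (0.71, interval 0.58 to 0.83). The lower one was Ifnb1, the gene of interferon beta, at 27.2 and 41.3 CPM (-0.60, interval -0.80 to -0.41). Neither passed 1.5-fold at clustering resolution 1.

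By role, the transcription factors had 8 of 9 genes measured, with Irf7 and Irf8 (0.30) highest and Nfkb1 (-0.33) and Rel (-0.09), members of the NF-kB family, lowest. Of 6 other receptors only Tlr1, a partner of TLR2, was measured, at 22.2 and 14.9 CPM (0.58, interval 0.30 to 0.86). Partners and chaperones had 13 of 16 listed genes measured, 6 above 0. The endolysosomal proteases Ctss (0.27) and Ctsb (0.27) were highest, and 5430427O19Rik and Cd36 (-0.32), a scavenger receptor that works with TLR2, were lowest. Adaptors and kinases had 15 of 20 measured, 10 above 0, from Peli1 (-0.13), a ubiquitin ligase, and the kinase Lyn (-0.11) to the kinases Ikbke (0.12) and Ikbkb (0.17). Negative regulators had 13 of 15 measured, 6 above 0, from Tnip3 (-0.44) and Pik3ap1 (-0.42) to Nfkbie (0.22) and Tnfaip3 (0.30), the gene of the deubiquitinase A20. Target cytokines had 8 of 11 measured, 4 above 0, from Ifnb1 and Ccl5 (-0.37) to Il10 (0.12) and Cxcl10 (0.14).

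In plasma cell-like cells 13 of 35 measured pathway genes were at least 1.5-fold higher, beside 5.73% of all measured genes. There the macrophage marker list summed to 179 and 53.2 CPM and the neutrophil list to 719 and 274 CPM, with no marker at 0, and their part was not tested. In granulocyte precursor-like cells 9 of 51 were higher, beside 8.35%, and the macrophage marker list, with 1 of 10 markers at 0 in each library, summed to 283 and 141 CPM.

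**Figure D5:**
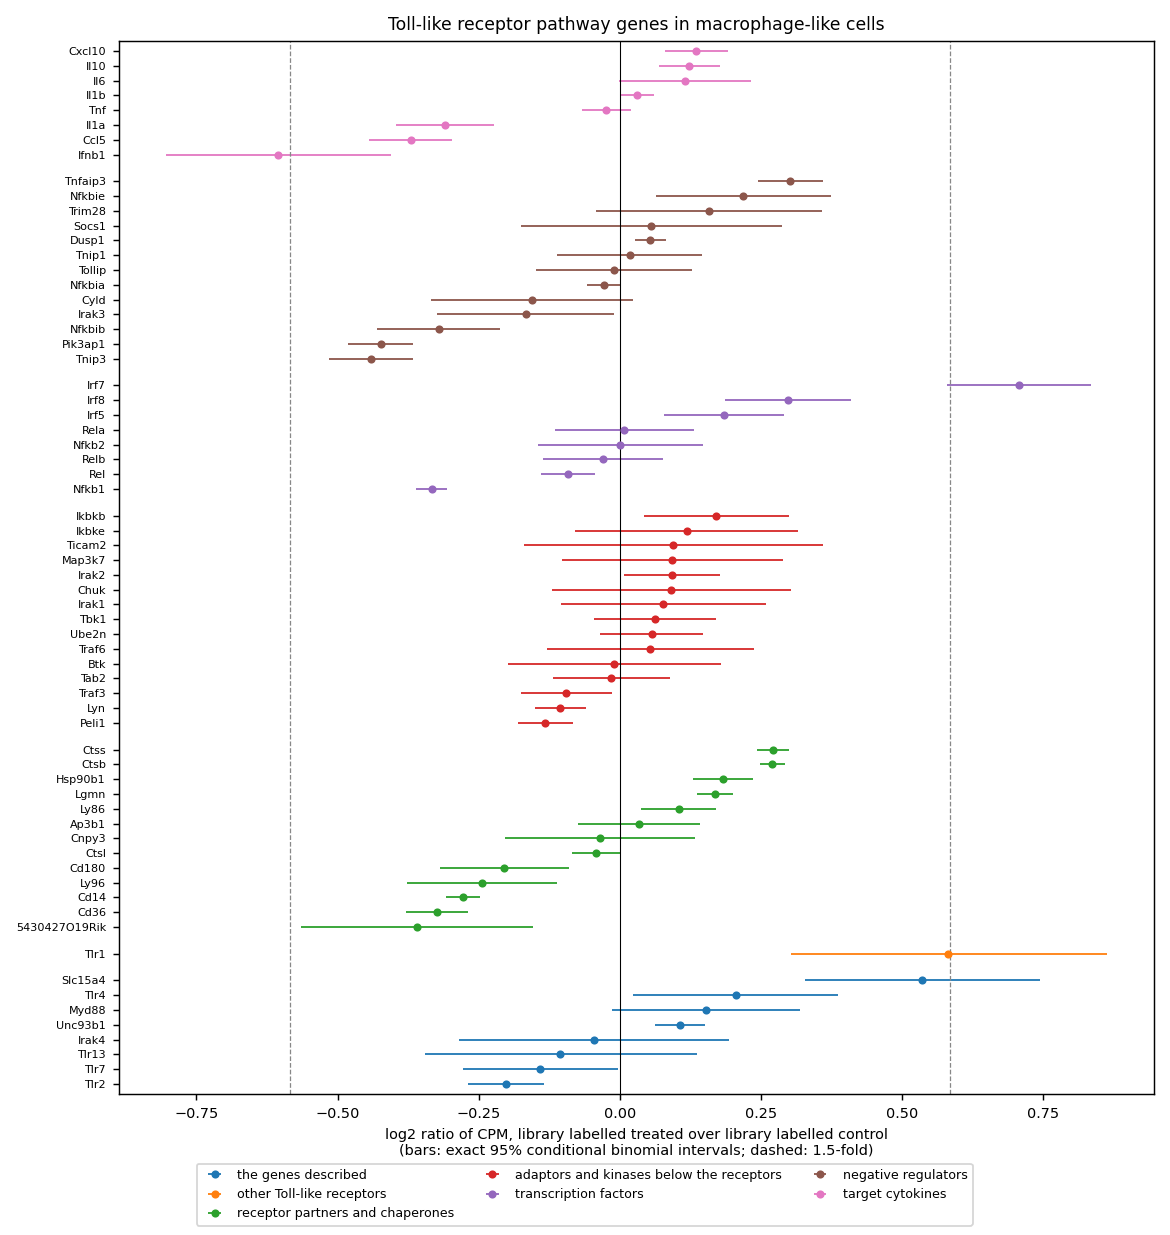
Log2 ratio of CPM, library labelled treated over library labelled control (horizontal axis), for the measured genes of the Toll-like receptor pathway in macrophage-like cells (rows, coloured by role), with exact 95% conditional binomial intervals and dashed lines at 1.5-fold. Only the points of Irf7 (0.71) and Ifnb1 (-0.60) lie beyond the dashed lines, and Slc15a4 (0.53) and Tlr1 (0.58) lie just inside the right one.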

How the data were processed

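Raw UMI counts per gene and barcode were used as deposited by the authors, with no normalization, for 2 libraries of mouse aortic leukocytes made with a 10x Genomics 3′ kit, per the labels' protocols. The submitters' processing notes name Seurat 4.4.0, Cell Ranger 3.1.0 and mm10, while the matrix headers carry Cell Ranger 7.2.0. No source used here says whether intronic reads count. The libraries held 13155 and 12516 barcodes with 77856529 and 88567528 UMIs, and shared 45 barcodes.

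A floor of 500 genes took out 511 and 352 barcodes and a ceiling of 15% mitochondrial UMIs 178 and 126, which left 12466 and 12038. Scrublet in scanpy 1.11.5 called 684 (5.20%) and 533 (4.26%) barcodes doublets, and those still present were removed. The 10 genes, 77 pathway genes and antigen receptor segments were kept out of the 2000 variable genes. Leiden clustering (igraph 0.11.9) at resolution 2 used 30 principal components and 15 neighbours, and clusters were named from 29 marker lists with a margin of 0.5 over the next list. UMIs were summed per type and library and given as CPM, with exact Poisson, conditional binomial and Clopper-Pearson 95% intervals (scipy 1.17.1). PCR and sampling of cells are not covered by these intervals. Only the conditional binomial ones were run on simulated counts. Those counts were drawn from the Poisson model that the interval assumes, with no spread between cells or libraries. The run checks the code and not how well the intervals cover the error in these data.

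Named were all 10 genes, Irf5, the 2 highest and 2 lowest measured ratios of each pathway role in macrophage-like cells, the 3 most alike patterns per gene, and Xist with Y-linked genes; Acaa1a and Twf1 were named as overlapping genes after their positions were seen. The genes, lists and rules were chosen with earlier results of these data known. GENCODE vM21 held 32158 of the 32285 identifiers. Alternatives of clustering, filters, weights, denominators and foreign marker UMIs were run.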

Additional observations from a re-analysis of the deposited data

Results flagged for a closer look

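For 3 genes, intervals lay above 0 in some cell types and below 0 in others. The differences between types were not tested, since each type was seen once per library. For Tlr2 the log2 ratio (library labelled treated over library labelled control) was 0.56 in granulocyte precursor-like, 0.34 in patrolling monocyte-like, 0.25 in neutrophil-like and 0.14 in classical monocyte-like cells, against -0.20 in macrophage-like and -0.33 in cDC2-like cells. For Tlr7 it was 0.43 in classical monocyte-like and -0.14 in macrophage-like cells. For Unc93b1 it was 1.15 in NK cell-like, 0.19 in granulocyte precursor-like and 0.11 in macrophage-like cells, against -0.26 in classical monocyte-like and -0.20 in cDC2-like cells. Some of these values turned direction or came closer to 0 under alternatives. Among cells holding 1 foreign marker UMI or none, Tlr7 was at -0.38 (-1.79 to 1.17) in classical monocyte-like and -0.03 (-0.44 to 0.38) in macrophage-like cells, and Tlr2 at 0.57 (-0.45 to 1.70) in cDC2-like cells. With doublet calls kept, Tlr2 in granulocyte precursor-like cells was at 0.11, but the type then lacked a cluster of 272 and 198 cells left unnamed.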

How the results depend on the processing

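No paired analysis was possible because each group had 1 library. Among pairs of gene and type, no ratio past 1.5-fold changed sign under the alternatives run for it. Ratios within macrophage states and of single pathway genes were not followed for sign. The foreign marker filter was not run in NK cell-like or granulocyte precursor-like cells. The pair lower by 1.5-fold became 0 pairs with means over cells. In macrophage-like cells, 1 of the 10 genes in place of 0 was past 1.5-fold higher with means over cells, and 1 among cells holding 1 foreign marker UMI or none. The pathway count of 1 gene higher was 0 at resolution 1, with doublet calls kept and with macrophage-like and monocyte-like cells together. It was 2 with at least 1000 genes per barcode, with at most 10% mitochondrial UMIs, with means over cells and among cells holding 1 foreign marker UMI or none, and 5 for genes with at least 1 UMI in each library. The count of 1 gene lower was 0 at resolution 1 and with means over cells, and 2 among cells holding 1 foreign marker UMI or none, with macrophage-like and monocyte-like cells together, and for genes with at least 1 UMI in each library, a wider set. The cause was not tested in the other cases. Counts of pairs were not run at resolution 1, which gave no cDC2-like type. Of 25 ratios among cells holding 1 foreign marker UMI or none, 11 left the main interval, some on few UMIs. By UMIs, depth limited mast cell-like cells most: the limit of 3 counts there was 11.7 and 20.1 CPM. The setting without neutrophil marker UMIs and the one that counts cluster 5 as classical monocyte-like were chosen after seeing the data.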

Other observations

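The unnamed cluster 31, led by Cfd, Prss34 and Hgf, held 233 and 27 cells. Its Tlr2 was at 155 and 154 CPM, from 115 and 8 UMIs, and its Unc93b1 at 259 and 327 CPM, from 192 and 17 UMIs. The unnamed cluster 5 held Tlr2 at 326 and 356 CPM, Unc93b1 at 503 and 614 CPM, Tlr7 at 40.0 and 45.5 CPM and Tlr13 at 23.1 and 25.9 CPM.

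The macrophage-like state led by Lyz1 and Retnla (181 and 91 cells) had Tlr8 at 11.7 and 14.3 CPM, from 16 and 11 UMIs, and Tlr13 at 6.61 and 2.60 CPM, from 9 and 2 UMIs. Foamy macrophage-like cells had Tlr8 at 2.71 and 4.69 CPM, from 7 and 9 UMIs, and Tlr13 at 29.5 and 35.4 CPM, from 76 and 68 UMIs. For Tlr13 the intervals of these states did not overlap in either library.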
